A study of Mus musculus with 16 samples.

Results

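Multipotent progenitors of the myeloid-biased class MPP3 were compared with haematopoietic stem cells (HSC) in mice that carry Jak2V617F. The members are the 4 libraries titled Jak2 HSC and the 4 titled Jak2 MPP3 Fcgr negative, 8 out of 16 libraries in the series. The other 8 libraries are the same cell types from wild-type (WT) mice, titled as controls of the mutant ones. All were made from bone marrow by RNA sequencing of 7000 to 10000 sorted cells per sample, with 10 ng of RNA of integrity number above 8.0 per library, and were read as 150-base pairs. Both groups described here carry the mutant allele, and the labels name no treatment, age, promoter, Cre driver or allele dose for it. They do not list the antibodies of the sort beyond the names HSC, MPP3 and Fcgr negative, and nothing in them ties a replicate to an animal of its own. Every p below therefore measures only the spread between these samples, which may be technical.

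HSC sit at the top of blood formation, divide rarely and can rebuild all blood lineages after transplantation. MPP3 are short-lived progenitors just below them that mostly feed the granulocyte and macrophage lineages. JAK2 is the tyrosine kinase that couples the receptors of erythropoietin and several other cytokines to STAT transcription factors, and the V617F change keeps it active without ligand, as in human myeloproliferative neoplasms with excess red cells, platelets or granulocytes. Fcgr receptors bind the constant part of IgG and mark committed granulocyte-monocyte progenitors, which a gate on Fcgr-negative cells leaves out.

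Levels are CPM, estimated counts per 1e6 after TMM scaling, and values for single libraries are given in the order of replicates 1 to 4. The test was the quasi-likelihood F test of edgeR, its p adjusted by Benjamini-Hochberg across the 14179 genes that passed a filter on low counts. A gene was called higher or lower in MPP3 where the adjusted p was under 0.05. Totals ran from 35.3 to 41.5 (in units of 1e6 counts) over the 8 libraries, with 15019 to 16522 genes detected in HSC and 14439 to 14766 in MPP3. Log2 CPM of libraries of the same group correlated at 0.934 to 0.971 across genes. The replicate number is the batch per the labels and was not a term of the test. The Y-linked gene Ddx3y was at 0 in replicates 1 and 4 of both cell types and between 35.1 and 52.6 CPM in replicates 2 and 3, so each numbered pair matched in this respect. On the first principal component of all 16 libraries, with 32.5% of the variance, MPP3 lay 111.1 to 121.3 units above HSC of the same number in mutant mice and 124.9 to 138.5 units above in WT mice.

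In Jak2V617F mice 523 genes were higher and 663 lower in MPP3, which is 3.69% and 4.68% of the genes tested and 8.36% together. A further view by size counted 701 called genes that differed more than 2-fold, 238 of them higher and 463 lower. The sign was the same in all 4 numbered pairs for 1147 of the 1186 called genes. The MPP3 values of 1079 called genes did not overlap the HSC values, against 1953 (13.8%) of all genes tested. The calls were made on these same libraries, so both counts follow largely from the call and are no separate support. The median log2 fold change over all genes was 0.002. Among the gene lists described below with 20 or more tested members, the share that fell was highest for megakaryocyte and platelet genes and for stem cell identity genes, and the share that rose was highest for primary granule and early myeloid genes and for lymphoid priming genes. The lists were chosen with earlier results of these data known, so their shares are a description and no independent support.

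**Figure D1:**
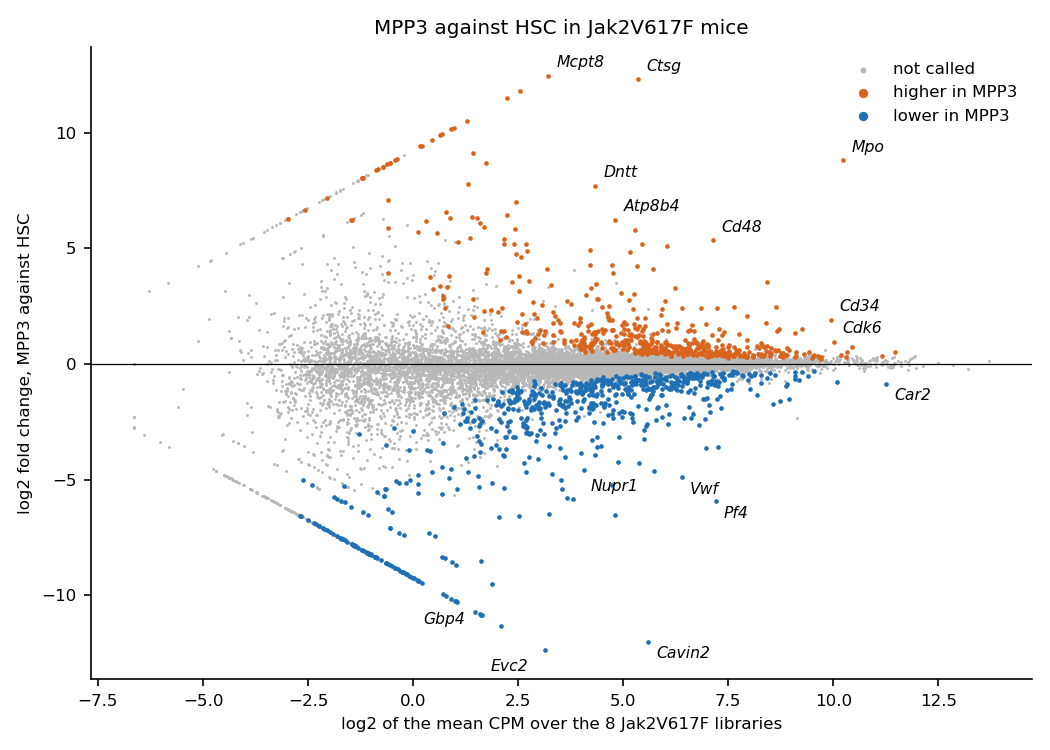
Log2 fold change of MPP3 against HSC (vertical axis) over the log2 of the mean CPM in the 8 Jak2V617F libraries (horizontal axis), 1 point a gene. The 523 orange genes were called higher and the 663 blue genes lower in MPP3; points on the 2 outer diagonals have no count in 1 of the groups, and their fitted values are not bounds.

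The 5′ flanks of 4 primary granule and 3 platelet genes that moved, picked after their values were seen, show what sequence stands before them. Each stretch is the 250 bases before the RefSeq start (GRCm38.p6), 5′ to 3′ on the strand of the gene. Capitals mark GAGGAA, the core that ETS factors such as PU.1 (from Spi1) and FLI1 can bind, or its reverse complement TTCCTC. In the platelet genes they also mark the GATA cores AGATAA and TGATAA on either strand, of which the printed stretches hold 1 match, in Mmrn1. These 3 motifs were chosen after the results were seen. The first 4 are primary granule genes that were higher in MPP3, at chr11:87793534-87793783 (+ strand), chr14:56102575-56102824 (- strand), chr10:79886062-79886311 (+ strand) and chr10:79879417-79879666 (+ strand).
Mpo: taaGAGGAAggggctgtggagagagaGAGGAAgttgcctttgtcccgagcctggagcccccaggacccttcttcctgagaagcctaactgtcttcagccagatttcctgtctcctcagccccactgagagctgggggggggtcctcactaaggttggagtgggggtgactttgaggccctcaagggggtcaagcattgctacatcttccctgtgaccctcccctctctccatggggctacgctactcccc
Ctsg: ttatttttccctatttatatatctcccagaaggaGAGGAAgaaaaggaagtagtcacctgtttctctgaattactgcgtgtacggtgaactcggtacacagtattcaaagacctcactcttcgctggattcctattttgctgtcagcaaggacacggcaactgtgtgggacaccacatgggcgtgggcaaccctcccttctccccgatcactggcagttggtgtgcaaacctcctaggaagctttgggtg
Elane: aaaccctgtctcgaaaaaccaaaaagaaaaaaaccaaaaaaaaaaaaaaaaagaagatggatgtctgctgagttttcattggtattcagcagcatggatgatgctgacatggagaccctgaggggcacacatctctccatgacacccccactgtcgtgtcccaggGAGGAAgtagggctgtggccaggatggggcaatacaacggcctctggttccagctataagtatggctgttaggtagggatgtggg
Prtn3: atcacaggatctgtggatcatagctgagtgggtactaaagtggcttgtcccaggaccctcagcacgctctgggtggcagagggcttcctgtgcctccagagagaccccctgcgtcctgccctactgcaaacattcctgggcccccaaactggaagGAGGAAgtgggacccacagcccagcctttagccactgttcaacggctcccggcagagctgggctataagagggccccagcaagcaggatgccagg
The next 3 precede platelet genes that were lower in MPP3, at chr5:90772185-90772434 (+ strand), chr11:102469884-102470133 (- strand) and chr6:60944067-60944316 (+ strand).
Pf4: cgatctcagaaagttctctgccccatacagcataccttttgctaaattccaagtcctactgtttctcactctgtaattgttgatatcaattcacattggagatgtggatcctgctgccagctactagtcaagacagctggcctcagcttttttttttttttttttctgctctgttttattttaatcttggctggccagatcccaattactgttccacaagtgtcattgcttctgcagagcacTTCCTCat
Itga2b: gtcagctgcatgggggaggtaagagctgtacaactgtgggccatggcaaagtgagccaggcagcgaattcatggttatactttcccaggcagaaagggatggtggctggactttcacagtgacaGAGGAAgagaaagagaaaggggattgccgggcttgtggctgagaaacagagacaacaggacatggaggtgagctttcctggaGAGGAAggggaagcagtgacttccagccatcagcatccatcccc
Mmrn1: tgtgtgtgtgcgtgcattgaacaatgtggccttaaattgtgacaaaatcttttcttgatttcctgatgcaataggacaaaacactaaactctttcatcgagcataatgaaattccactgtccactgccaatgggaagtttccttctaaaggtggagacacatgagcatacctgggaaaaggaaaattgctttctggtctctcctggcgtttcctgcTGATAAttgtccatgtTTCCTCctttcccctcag
Each of these 7 stretches holds GAGGAA on at least 1 strand. Both the genes and the motif were picked after the data were seen, so that count is no evidence of a shared feature. Cavin2, Treml1, Nkg7 and Cst7, members of the same 2 lists, had windows without GAGGAA. In the whole windows, which run on to 50 bases after the start, GAGGAA was present for 13 of 22 primary granule and early myeloid members with a window (59.1%) and for 10 of 24 megakaryocyte members (41.7%), against 26.7% of the windows of all 10396 tested genes that had one. It was also present for 10 of 25 ER luminal chaperones (40%) and 14 of 39 mitosis genes (35.9%), of whose 47 tested members 1 was called. AGATAA stood in 4 of 24 megakaryocyte windows (16.7%) and in 1 of 22 early myeloid windows (4.55%), against 6.75% of all windows. TGATAA stood in 3 of 24 (12.5%) and 1 of 22 (4.55%), against 4.29%. The C/EBP half-site pair TTGCNNAA stood in 4 of 22 early myeloid windows (18.2%), against 8.49%. A match is a description of letters and not a binding site.

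The genes of the surface proteins that are commonly used to sort these cells differed as follows; where a protein was part of the gate, its difference was set by the sort and is no finding. Cd48, an adhesion receptor that HSC lack, read 8.67, 4.91, 5.78 and 7.59 CPM in HSC and 334, 268, 242 and 259.8 CPM in MPP3 (log2 fold change 5.35 ± 0.23 (SE), edgeR adjusted p = 2.01e-10). Its lowest MPP3 library was far above its highest HSC library. Slamf1, the gene of the HSC marker CD150, went the other way, from 39.5, 33.1, 39.6 and 38.5 CPM to 3.54, 2.71, 1.05 and 2.45 CPM (log2 fold change -3.95 ± 0.36 (SE), edgeR adjusted p = 1.52e-06). The fall was present in each of the 4 numbered pairs, with no overlap. Flt3, the receptor tyrosine kinase of early lymphoid and myeloid progenitors, read 30.3, 25.03, 24.2 and 26.9 CPM in HSC and 129, 124, 190.3 and 124 CPM in MPP3, a 5.33-fold rise (adjusted p = 8.15e-08, edgeR). MPP3 replicate 3 was the highest for Flt3 while the other 3 lay close together. Cd34, a sialomucin that rises as HSC leave the long-term state, was 3.77-fold higher in MPP3 (1.91 ± 0.13, adjusted p = 7.23e-08, edgeR). Ly6a, which encodes SCA-1, was 1.58-fold lower (-0.66 ± 0.13, adjusted p = 0.00412, edgeR), from 89.1, 116, 132 and 95.4 CPM to 59.9, 68.96, 78.5 and 66.7 CPM. Kit, the receptor of stem cell factor, was at 973 ± 125 CPM in HSC and 857 ± 115 CPM in MPP3 (SD, n = 4) and did not pass the test (adjusted p = 0.467, edgeR). Procr, the gene of the stem cell marker EPCR, read 36.1, 38.9, 63.6 and 35.5 CPM in HSC and 33.2, 27.6, 27.9 and 24.02 CPM in MPP3; the groups did not overlap, but the difference of -0.63 ± 0.22 did not pass (adjusted p = 0.104, edgeR).

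Among the Fcgr genes, Fcgr2b, the inhibitory receptor, was 6.04-fold higher in MPP3, with 4.24, 5.696, 3.12 and 2.21 CPM in HSC and 25.6, 20.6, 29.8 and 16.1 CPM in MPP3 (log2 fold change 2.59 ± 0.48 (SE), edgeR adjusted p = 0.00186). Fcgr3, an activating receptor, stood at 0.1896, 0, 0.426 and 0.341 CPM in HSC and 2.67, 1.87, 6.93 and 2.04 CPM in MPP3 (log2 fold change 3.80 ± 1.13 (SE), edgeR adjusted p = 0.0462). That call was lost when any 1 of the 8 libraries was left out, with an adjusted p between 0.0552 and 0.215 over the settings that lost it. Fcgr1 was near 1 CPM or below in nearly all libraries and did not pass (log2 fold change 0.43 ± 1.403, adjusted p = 0.927, edgeR), and Fcgr4 was not among the genes tested. Jak2 itself read 27.4, 30, 18.2 and 27.8 CPM in HSC and 21.7, 23.2, 32.5 and 20.3 CPM in MPP3 (log2 fold change -0.08 ± 0.23 (SE), edgeR adjusted p = 0.914), so the 2 cell types overlapped. These counts do not separate the mutant from the normal allele.

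**Figure D2:**
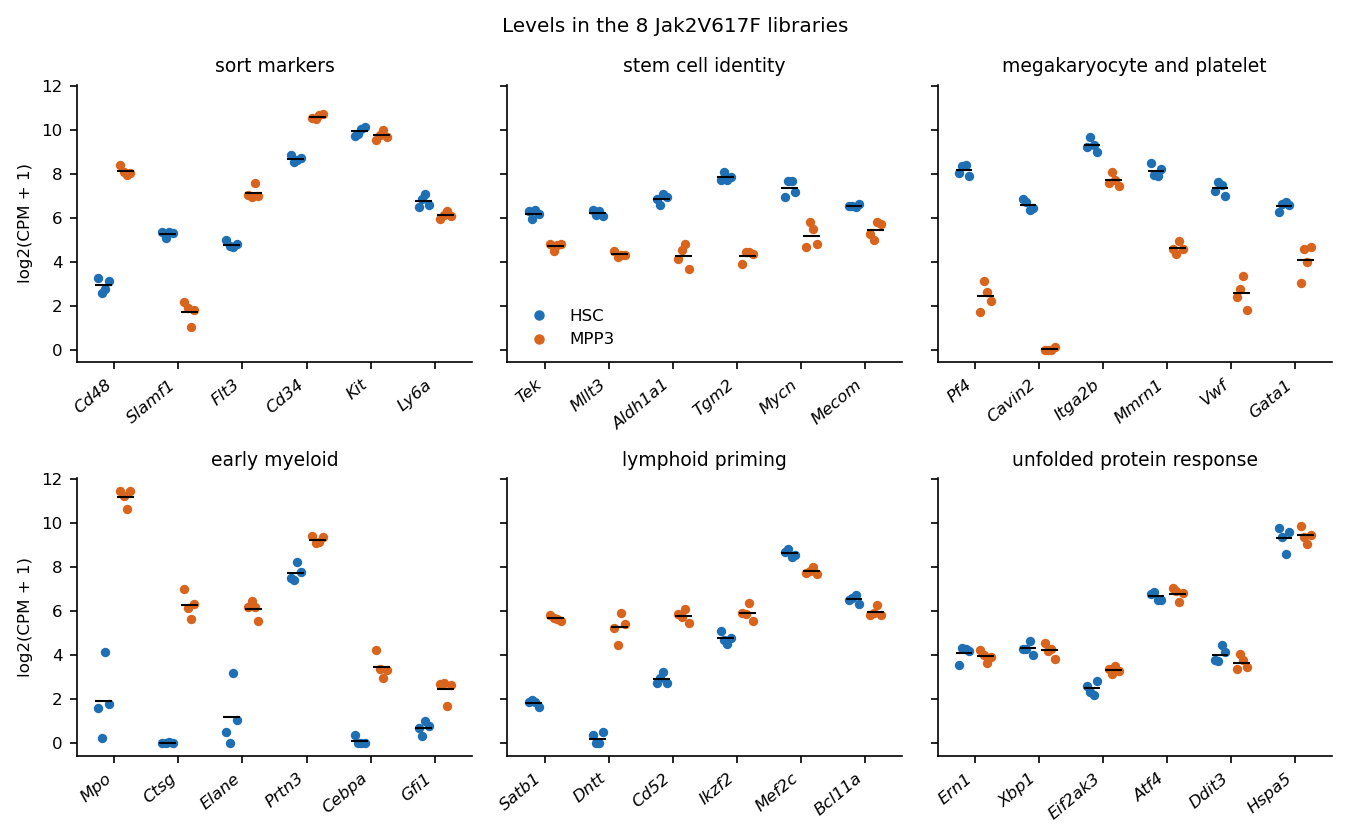
Levels of 36 genes as log2(CPM + 1) in the 8 Jak2V617F libraries, 6 genes in each of 6 panels; points are libraries (blue HSC, orange MPP3) and bars are means of 4. The HSC and MPP3 points are apart for the stem cell, platelet, early myeloid and lymphoid genes shown, and overlap for Kit and for each unfolded protein response gene shown except Eif2ak3.

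Genes of stem cell identity were lower in MPP3. Of the 42 tested members, 27 were called lower and 1, Cd34, higher, with a median log2 fold change of -1.52, against 4.68% lower, 3.69% higher and a median of 0.002 over all genes. Cd34 is one of the sort markers above. Any list member that was part of the gate, here or below, has a difference set by the sort. Mllt3, the transcriptional elongation factor AF9 that maintains HSC, fell from 80.3, 68.9, 77.8 and 65.7 CPM to 21.6, 17.4, 18.97 and 18.8 CPM (log2 fold change -1.93 ± 0.13 (SE), edgeR adjusted p = 4.96e-08). Every HSC library was more than 2-fold above every MPP3 library. Aldh1a1, a retinaldehyde dehydrogenase long used as a stem cell marker, was 5.99-fold lower and Tgm2, the gene of transglutaminase 2, 12.3-fold lower. Tgm2 read 207, 272, 211 and 230.4 CPM in HSC and 13.7, 20.7, 20.8 and 19.5 CPM in MPP3 (log2 fold change -3.62 ± 0.39 (SE), edgeR adjusted p = 1.03e-05). Mycn, a MYC family transcription factor, fell from 121, 199, 199 and 142 CPM to 24.3, 54.4, 44.4 and 26.7 CPM (log2 fold change -2.14 ± 0.26 (SE), edgeR adjusted p = 3.91e-05).

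Smaller falls were those of Mecom, which encodes the HSC regulator EVI1 (-1.09 ± 0.21, adjusted p = 0.00263, edgeR), and of Tek, the angiopoietin receptor TIE2 (-1.51 ± 0.24, adjusted p = 0.000583, edgeR). Mecom was even across HSC at 91.3, 92.3, 89.6 and 96.3 CPM and ranged over 37.1, 30.9, 54.8 and 51.3 CPM in MPP3. Meis1, the partner of HOX proteins, fell 1.45-fold (adjusted p = 0.00776, edgeR), a call that was lost without HSC replicates 1 and 4 together (adjusted p = 0.104, edgeR). Of the 21 tested HOX and TALE genes 3 rose (14.29%) and 4 fell (19.05%), against 3.69% and 4.68% of all genes. Their median was -0.75. Without HSC replicate 3, and again without HSC replicate 4, 2 fell; without HSC replicates 1 and 4 together 1 fell, and DESeq2 called 7 lower. Hlf, the PAR bZIP factor of HSC, was on the list and did not pass the test, at 150.0 ± 6.04 CPM in HSC and 148 ± 23.7 CPM in MPP3 (SD, n = 4; log2 fold change -0.02 ± 0.11, adjusted p = 0.957, edgeR). In bulk samples a lower level in fewer cells and a lower level in each cell cannot be told apart, here and in all results below.

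Genes of megakaryocytes and platelets were lower in MPP3. Of 35 tested members 25 were lower in MPP3 and none higher by the same edgeR test (0 at an unadjusted p under 0.05, 0 by DESeq2), against 4.68% and 3.69% of all genes, and their median log2 fold change was -2.49. Pf4, the platelet chemokine CXCL4 whose flank is printed above, read 256, 328, 333 and 236 CPM in HSC and 2.27, 7.79, 5.19 and 3.63 CPM in MPP3 (log2 fold change -5.93 ± 0.35 (SE), edgeR adjusted p = 1.74e-08). Cavin2, a coat protein of caveolae, read 115, 104, 79.8 and 85.5 CPM in HSC; in MPP3 there were 3 counts in all, in replicate 4, against 15055 in HSC. The ratio of its summed counts was 4775 (95% exact counting interval 1633 to 23160), which covers counting error only. Vwf, the adhesive protein of platelets that also marks platelet-biased HSC, fell 29.7-fold, from 147, 196, 177 and 127 CPM to 4.22, 5.86, 9.26 and 2.45 CPM (log2 fold change -4.89 ± 0.35 (SE), edgeR adjusted p = 1.15e-07). Clu, which encodes the chaperone clusterin of platelet granules, read 77.5, 56.2, 49.8 and 39.2 CPM in HSC and 1.55, 0.0838, 0 and 0.818 CPM in MPP3 (log2 fold change -6.52 ± 0.64 (SE), edgeR adjusted p = 2.88e-06). MPP3 replicate 3 had no count of Clu.

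Receptors of the platelet surface fell as well. Itga2b, the integrin αIIb that is CD41, read 591, 823, 632 and 499 CPM in HSC and 189, 267, 207 and 175 CPM in MPP3 (log2 fold change -1.60 ± 0.17 (SE), edgeR adjusted p = 8.74e-06). HSC replicate 2 was the highest of its group for Itga2b, as MPP3 replicate 2 was of the other. Itgb3, its β3 partner, fell 5.61-fold (-2.49 ± 0.24), and Gp9, part of the receptor for von Willebrand factor, 6.09-fold (-2.61 ± 0.23). F2r, the thrombin receptor PAR1, fell 2.85-fold (adjusted p = 3.58e-05, edgeR). Mmrn1, multimerin of platelet granules, fell 11.9-fold (-3.58 ± 0.22, adjusted p = 2.4e-08, edgeR). Treml1, a receptor of platelet granules, read 17.8, 21.4, 20.4 and 16.6 CPM in HSC and 0.575, 0.419, 0 and 1.81 CPM in MPP3. Slc14a1, the urea transporter of HSC and red cells, fell from 195, 202, 180.5 and 195 CPM to 22.9, 35.8, 40.6 and 24.2 CPM (log2 fold change -2.64 ± 0.22 (SE), edgeR adjusted p = 6.4e-07).

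The enzymes that make thromboxane, the lipid that activates platelets, fell with them. Ptgs1, cyclooxygenase 1, read 210.0, 222, 234 and 202 CPM in HSC and 41.6, 58.99, 58.3 and 49.4 CPM in MPP3 (log2 fold change -2.06 ± 0.16 (SE), edgeR adjusted p = 2.22e-07). Tbxas1, thromboxane synthase, read 219.5, 165, 217 and 213 CPM and 44.5, 64.3, 71.1 and 56.5 CPM (log2 fold change -1.79 ± 0.15 (SE), edgeR adjusted p = 4.58e-07). The groups were apart for both genes. On the list of 18 tested eicosanoid enzymes and receptors, 3 fell (16.67%) and 2 rose (11.11%), against 4.68% and 3.69% of all genes. The risers were Ltb4r1, the leukotriene B4 receptor of leukocytes, with 0.237, 0.365, 0.107 and 0.633 CPM in HSC and 12.6, 11.3, 13.8 and 12.4 CPM in MPP3 (log2 fold change 5.21 ± 0.45 (SE), edgeR adjusted p = 7.58e-07), and Ltc4s, leukotriene C4 synthase (1.04 ± 0.19, adjusted p = 0.00194, edgeR). Alox5, 5-lipoxygenase, was the third to fall (-1.71 ± 0.38, adjusted p = 0.00763, edgeR).

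Gata1, Gfi1b, Fli1 and Gata2, transcription factors of the megakaryocyte and erythroid branch, were lower in MPP3. Gata1, the zinc finger factor needed for red cells and platelets (chrX:7959260-7978071), read 76.4, 97.9, 104 and 93.8 CPM in HSC and 7.18, 22.9, 14.9 and 24.4 CPM in MPP3 (log2 fold change -2.42 ± 0.31 (SE), edgeR adjusted p = 5.99e-05). MPP3 replicate 1 was the lowest of its group and no MPP3 library reached the HSC range. Gfi1b, the repressor of the same branch, read 138, 198, 202 and 167 CPM in HSC and 31.5, 73.5, 85.4 and 55.9 CPM in MPP3 (log2 fold change -1.52 ± 0.25 (SE), edgeR adjusted p = 0.000583). Fli1, the ETS factor of megakaryocytes, fell 1.605-fold (-0.68 ± 0.09, adjusted p = 6.28e-05, edgeR), and Gata2, the GATA factor of HSC, 1.83-fold (-0.88 ± 0.19, adjusted p = 0.00632, edgeR). Of 37 tested erythroid genes 5 fell by edgeR (Gata1, Gfi1b, Epor, Car2 and Icam4), or 13.51% against 4.68% of all genes, with a median of -0.12. None rose by edgeR (5 at an unadjusted p under 0.05, 3 by DESeq2), against 3.69%. Without MPP3 replicate 3 the falls numbered 8, and 8 fell and 4 rose with a block for each batch and genotype. Car2, carbonic anhydrase 2, was high in both cell types and read 2979, 2866, 3381 and 3386 CPM in HSC and 1298, 1797, 2357 and 1561 CPM in MPP3 (log2 fold change -0.85 ± 0.14 (SE), edgeR adjusted p = 0.000882). Icam4, a red cell adhesion protein, fell 2.47-fold (adjusted p = 0.000324, edgeR). Epor, the erythropoietin receptor, read 34.8, 39.7, 33.7 and 40.9 CPM in HSC and 0, 2.09, 10.1 and 4.73 CPM in MPP3 (log2 fold change -3.14 ± 0.74 (SE), edgeR adjusted p = 0.0121), a call that was lost in a fit on the 8 mutant libraries alone (adjusted p = 0.0766, edgeR). Mfsd2b, the sphingosine-1-phosphate exporter of red cells and platelets, read 73.1, 98.3, 86.7 and 67.00 CPM in HSC and 1.38, 9.74, 12.96 and 9.86 CPM in MPP3 (log2 fold change -3.26 ± 0.48 (SE), edgeR adjusted p = 0.000227); it was named after its values were seen.

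Genes of primary granules and early myeloid cells were higher in MPP3. Of the 28 tested members 18 rose and none fell by the edgeR test (3 at an unadjusted p under 0.05, 1 by DESeq2), with a median log2 fold change of 2.19, against 3.69% and 4.68% of all genes. Mpo, myeloperoxidase of primary granules, read 2.04, 0.196, 16.8 and 2.41 CPM in HSC and 2845, 2404, 1594 and 2797 CPM in MPP3 (log2 fold change 8.81 ± 1.37 (SE), edgeR adjusted p = 0.00112). HSC replicate 3 had the highest Mpo of its group and MPP3 replicate 3 the lowest of the other, and the groups stayed far apart. Ctsg, cathepsin G, had 2 counts in the 4 HSC libraries together, both in replicate 3, and 128, 70.6, 48.9 and 80.05 CPM in MPP3. The ratio of its summed counts was 6320 (95% exact counting interval 1749 to 52190). Elane, neutrophil elastase, read 0.4502, 0, 8.26 and 1.12 CPM in HSC and 71.5, 86.2, 72.9 and 46.5 CPM in MPP3 (log2 fold change 4.82 ± 1.15 (SE), edgeR adjusted p = 0.019). The call for Elane was lost without HSC replicate 1 (adjusted p = 0.0545, edgeR), without HSC replicate 4 (0.0657) and in limma-voom (0.23). Prtn3, proteinase 3, was already present in HSC, which held 182, 171, 303 and 216 CPM and MPP3 679, 542, 572 and 665 CPM (log2 fold change 1.495 ± 0.17 (SE), edgeR adjusted p = 1.45e-05). Its 2.82-fold rise was smaller than the fold changes of Mpo and Elane, and HSC replicate 3 was again the highest HSC library.

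Other members that rose were Nkg7, a granule membrane protein (1.76 ± 0.16), Plac8, a small cysteine-rich protein of myeloid cells (2.46 ± 0.22), Serpinb1a, an inhibitor of neutrophil proteases (1.42 ± 0.13), and Prss57, a serine protease of primary granules (1.97 ± 0.21). Their adjusted p from edgeR lay between 1.14e-06 and 6.22e-06. Nkg7 read 132, 163, 167 and 151 CPM in HSC and 528, 484, 554 and 507 CPM in MPP3, with a narrow spread in both. Ms4a3, a membrane protein of granulocyte-monocyte progenitors, read 2.39, 3.56, 5.11 and 2.75 CPM in HSC and 54.8, 32.02, 29.2 and 34.6 CPM in MPP3 (log2 fold change 3.45 ± 0.52 (SE), edgeR adjusted p = 0.000278). Cst7, cystatin F, rose 19.2-fold and Hk3, a hexokinase of myeloid cells, 5.299-fold. For each of these genes the lowest MPP3 library exceeded the highest HSC library.

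Transcription factors of myeloid fate moved both ways: of 37 tested, 7 rose (18.92%) and 6 fell (16.22%), against 3.69% and 4.68% of all genes. Their median was -0.18. Cebpa, the factor that starts granulopoiesis, read 0.284, 0, 0 and 0.0243 CPM in HSC and 18.02, 9.35, 6.88 and 9.22 CPM in MPP3 (log2 fold change 7.02 ± 1.31 (SE), edgeR adjusted p = 0.00214). Gfi1, the repressor of the granulocyte branch and paralogue of Gfi1b, read 0.616, 0.281, 1.04 and 0.706 CPM and 5.52, 5.72, 2.199 and 5.34 CPM (log2 fold change 2.82 ± 0.51 (SE), edgeR adjusted p = 0.0016). Gfi1 and Gfi1b thus moved in opposite directions. Irf8, the factor of monocytes and dendritic cells, rose 3.98-fold (1.99 ± 0.37, adjusted p = 0.00194, edgeR), and HSC replicate 3 was its highest HSC library. Myb, which drives progenitor proliferation, rose 1.73-fold, with 95.5, 84.2, 86.04 and 79.3 CPM in HSC and 158, 152, 149 and 138 CPM in MPP3 (log2 fold change 0.79 ± 0.09 (SE), edgeR adjusted p = 1.75e-05). Spi1, which encodes PU.1, rose 2.36-fold (adjusted p = 0.0126, edgeR), a call lost without HSC replicate 4 (adjusted p = 0.0503, edgeR). The factors that fell were Gata1, Gata2, Gfi1b and Fli1 from above, with Zfpm1 and Bcl11a. Without HSC replicates 1 and 4 together 3 of these factors were called higher.

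Genes of lymphoid priming were higher in MPP3 as well: 15 of 28 tested rose and 2 fell, with a median of 2.21, against 3.69% and 4.68% of all genes. Flt3, one of the sort markers above, is among the risers. Satb1, a chromatin organiser of lymphoid progenitors, read 2.63, 2.95, 2.72 and 2.17 CPM in HSC and 55.2, 50.9, 49.4 and 46.8 CPM in MPP3 (log2 fold change 4.27 ± 0.21 (SE), edgeR adjusted p = 1.98e-09). Dntt, the terminal transferase of early B and T cell precursors, read 0.284, 0, 0 and 0.438 CPM and 37.1, 21.2, 60.6 and 41.5 CPM (log2 fold change 7.71 ± 1.01 (SE), edgeR adjusted p = 0.000121). Cd52, a small glycoprotein of lymphocytes, rose 8.28-fold (3.05 ± 0.19). Ikzf1, the gene of IKAROS, rose 1.47-fold, its relative Ikzf2 2.31-fold, and the SOX factor Sox4 2.11-fold (1.08 ± 0.12, adjusted p = 1.51e-05, edgeR). The 2 members that fell were Mef2c, a MADS factor that favours the lymphoid fate, with 411, 450.2, 353 and 379 CPM in HSC and 215, 229.6, 259 and 205 CPM in MPP3 (log2 fold change -0.81 ± 0.11 (SE), edgeR adjusted p = 0.000122), and Bcl11a, a zinc finger factor of B cell development and HSC (-0.59 ± 0.13, adjusted p = 0.00843, edgeR). Genes of the surrogate light chain of B cell precursors were absent from the HSC libraries and low in MPP3. Igll1 read 1.21, 3.77, 9.08 and 1.58 CPM in MPP3, at least 50.7-fold above a floor of 3 counts per HSC library, and Vpreb1 read 0.776, 0.586, 5.42 and 2.15 CPM, at least 28.97-fold. MPP3 replicate 3 was the highest of the 4 for Flt3, Dntt, Igll1 and Vpreb1.

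Markers of other cell types that a gate could hold also moved. On the B cell list 6 of 11 tested members rose (54.55%, against 3.69% of all genes). The median was 6.47, or 3.75 with genes at 0 in 1 group set to their bound. The summed level of that list was 54.6 to 69.9 CPM in HSC and 96.8 to 183 CPM in MPP3. Cd79a, of the B cell receptor, read 0, 0, 0.0799 and 0 CPM in HSC and 1.21, 3.91, 10.9 and 3.81 CPM in MPP3, while Pax5, the factor of committed B cells, had counts in 1 of the 8 libraries. Ebf1, the early B cell factor, was at 0 in each HSC library and read 2.24, 0.838, 11.8 and 4.57 CPM in MPP3, at least 63.1-fold above the floor; limma-voom did not call it (adjusted p = 0.0747). Ighm, the IgM heavy chain constant region, read 0.403, 0, 3.65 and 0.7303 CPM in HSC and 27.2, 32.4, 57.8 and 26.7 CPM in MPP3 (log2 fold change 4.92 ± 0.86 (SE), edgeR adjusted p = 0.00189). On the T and NK cell list 2 of 10 rose (20.0%, against 3.69% of all genes). Its summed level was 6.21 to 16.2 CPM in HSC and 11.6 to 20.5 CPM in MPP3, and Cd3d and Cd3e were at or near 0. The part of such cells in the lymphoid rises was not tested.

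Of 15 tested mast cell and basophil genes 6 rose by edgeR, against 3.69% of all genes. By the same test none fell (1 at an unadjusted p under 0.05, 0 by DESeq2), against 4.68% of all genes. The median log2 fold change was 1.02, and 3 genes rose without HSC replicates 1 and 4 together. Mcpt8, a basophil protease, was at 0 in each HSC library and read 29.8, 17.7, 11.2 and 15.8 CPM in MPP3, at least 242-fold above the floor of 3 counts per library. Cpa3, the carboxypeptidase of mast cell granules, rose from 3.67, 3.14, 3.06 and 6.35 CPM to 51.3, 113, 88.1 and 51.5 CPM (log2 fold change 4.22 ± 0.40 (SE), edgeR adjusted p = 1.89e-06). Hdc, which makes histamine, read 0.569, 0.7296, 1.57 and 0.243 CPM in HSC and 12.7, 10.6, 8.08 and 11.8 CPM in MPP3 (log2 fold change 3.79 ± 0.73 (SE), edgeR adjusted p = 0.00263). The summed level of the list was 172.7 to 217.5 CPM in HSC and 243.2 to 343.4 CPM in MPP3, while Prss34, Tpsb2 and Tpsab1, proteases of mature mast cells and basophils, had no count in any of the 8 libraries.

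On the monocyte, macrophage and dendritic list 6 of 22 tested members rose by edgeR (27.27%, against 3.69% of all genes). None fell by edgeR (2 at an unadjusted p under 0.05, 2 by DESeq2), against 4.68%. But the summed level of the list was higher in HSC, 706 to 1787 CPM against 234.7 to 603 CPM, most of it Cd74, described below. On the neutrophil list 4 of 18 rose (Cybb, Anxa1, Cxcr2 and Csf3r; 22.22%) and 1 fell (Il1b; 5.56%), against 3.69% and 4.68% of all genes. Cybb was at 0 in each HSC library and read 0.201, 0.195, 4.71 and 0.102 CPM in MPP3, so its level came mostly from MPP3 replicate 3. Il1b read 1.37, 3.65, 1.57 and 0.487 CPM in HSC and was at 0 in each MPP3 library. The list summed to 262.5 to 333 CPM in HSC and 420.0 to 764 CPM in MPP3. The rises numbered 1 without HSC replicate 2, and 2 without HSC replicate 1, HSC replicate 4 or MPP3 replicate 3. The fall was lost when any 1 of the 8 libraries was left out. Ly6g, Mmp8 and Itgb2l, of mature neutrophils, were at or near 0 in both cell types. On the stroma and endothelium list 1 of 12, Pdgfrb, rose (8.33%) and 1, Col1a2, fell (8.33%), against 3.69% and 4.68% of all genes. The collagen gene Col1a2 read 9.76, 11.6, 4.18 and 9.18 CPM in HSC and 0.632, 0, 0.0256 and 0.179 CPM in MPP3 and lost its call in 10 of the 18 alternatives. Haemoglobin genes made up no more than 0.0270% of counts in any of the 8 libraries.

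Among receptors for cytokines and growth factors 12 of 41 tested rose (29.27%) and 5 fell (12.2%), against 3.69% and 4.68% of all genes. Their median was 0.50. Csf1r, the receptor of macrophage colony-stimulating factor, read 1.16, 1.32, 3.41 and 1.899 CPM in HSC and 8.22, 13.9, 17.1 and 10.9 CPM in MPP3 (log2 fold change 2.68 ± 0.37 (SE), edgeR adjusted p = 0.000121). Csf3r, the G-CSF receptor, read 49.4, 25.4, 63.8 and 50.5 CPM and 191, 74.7, 152 and 188 CPM (log2 fold change 1.68 ± 0.29 (SE), edgeR adjusted p = 0.0011), and replicate 2 was the lowest of both groups. Csf2rb, the shared chain for GM-CSF, interleukin 3 and interleukin 5, rose 2.73-fold (1.45 ± 0.22). Il1r1, the interleukin 1 receptor, read 12.7, 8.45, 5.27 and 13.2 CPM in HSC and 55.1, 30.4, 28.2 and 46.96 CPM in MPP3 (log2 fold change 2.02 ± 0.36 (SE), edgeR adjusted p = 0.00158). Il10rb rose 2.31-fold and Il4ra 1.59-fold. Among the 5 that fell were Epor, Tek, Il27ra and Tgfbr3. Tgfbr3, the accessory TGFβ receptor, read 89.02, 84.1, 90.8 and 90.1 CPM in HSC and 23.9, 24.9, 28.4 and 16.8 CPM in MPP3 (log2 fold change -1.91 ± 0.27 (SE), edgeR adjusted p = 0.000131). Epor and Csf2rb both signal through JAK2, and the first was lower and the second higher in MPP3.

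Some target genes of STAT factors below JAK2 differed between the cell types, in both directions. On the list of 25 tested JAK-STAT targets 6 fell (among them Socs2, Cish, Bcl2l1, Gadd45g and Ccnd2) and 2 rose (Il4ra and Bcl6), against 4.68% and 3.69% of all genes, with a median of 0.02. Socs2, a feedback inhibitor of cytokine receptors, read 39.7, 48.5, 49.8 and 24.3 CPM in HSC and 4.77, 2.57, 5.32 and 1.099 CPM in MPP3 (log2 fold change -3.56 ± 0.45 (SE), edgeR adjusted p = 4.79e-05). Cish, the feedback inhibitor CIS, read 41.96, 48.01, 78.9 and 34.5 CPM and 12.6, 14.1, 13.8 and 8.66 CPM (log2 fold change -2.05 ± 0.30 (SE), edgeR adjusted p = 0.000192). Bcl2l1, which encodes the survival protein BCL-XL, fell 2.09-fold, with 226, 269.6, 276 and 259 CPM in HSC and 105, 135, 142 and 111 CPM in MPP3 (log2 fold change -1.06 ± 0.14 (SE), edgeR adjusted p = 6.87e-05). For each of these 3 genes all HSC libraries lay above all MPP3 libraries. Gadd45g, a stress and growth arrest gene, fell 3.46-fold (adjusted p = 0.000281, edgeR). Il4ra rose, with 68.2, 65.1, 66.8 and 83.2 CPM in HSC and 107, 90.7, 133 and 121 CPM in MPP3 (log2 fold change 0.67 ± 0.13 (SE), edgeR adjusted p = 0.00262). Pim1, a kinase gene induced by STAT5, read 300.5, 174, 177 and 235 CPM and 384, 284, 379 and 327 CPM and did not pass (adjusted p = 0.13); with the replicate number as a block it was called higher (adjusted p = 0.00361, edgeR). Of the 26 JAK kinases, STATs and their restraints tested, 1 rose (3.85%) and 2 fell (7.69%), near the shares of all genes.

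Of 49 tested interferon-induced genes 10 fell in MPP3 and none rose by the edgeR test (4 at an unadjusted p under 0.05, 0 by DESeq2), with a median of -0.38, against 4.68% and 3.69%. Ifitm3, a membrane protein that blocks virus entry, read 565, 573, 712 and 594 CPM in HSC and 356, 308, 307 and 371 CPM in MPP3 (log2 fold change -0.86 ± 0.10 (SE), edgeR adjusted p = 2.2e-05). Iigp1, an immunity-related GTPase, read 103, 147, 50.00 and 102 CPM and 19.7, 39.2, 41.6 and 17.9 CPM (log2 fold change -1.76 ± 0.37 (SE), edgeR adjusted p = 0.00565). HSC replicate 3 had the lowest Iigp1 of its group and came near the highest MPP3 library. Gbp4, a guanylate-binding protein, was at 0 in each MPP3 library and read 8.58, 5.11, 3.25 and 7.67 CPM in HSC, at least 76.1-fold above a floor of 3 counts per MPP3 library. Ifih1, the RNA sensor MDA5, fell 1.93-fold (-0.95 ± 0.18, adjusted p = 0.00267, edgeR).

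Antigen presentation gave 4 falls (14.29%) and 2 rises (7.14%) among 28 tested genes, against 4.68% and 3.69% of all genes. With the replicate number as a block 10 fell, and without HSC replicate 2, or without MPP3 replicate 1, 2 fell, while 9 fell without MPP3 replicate 2. The rises numbered 1 without HSC replicate 1, HSC replicate 4, MPP3 replicate 2 or MPP3 replicate 4. H2-T23, a non-classical class I gene, fell 1.57-fold (-0.65 ± 0.14, adjusted p = 0.0051, edgeR). H2-Aa, a class II chain, read 185, 382, 247 and 194 CPM in HSC and 43.9, 135, 52.9 and 41.3 CPM in MPP3 (log2 fold change -1.88 ± 0.47 (SE), edgeR adjusted p = 0.0204), and lost its call without HSC replicate 2, or without MPP3 replicate 1, 3 or 4 (adjusted p from 0.0565 to 0.0685, edgeR). Cd74, the class II invariant chain, read 580.1, 1656, 723 and 794 CPM and 92.97, 459, 118 and 72.7 CPM, with replicate 2 the highest of both groups. It did not pass (adjusted p = 0.0598) but was called lower with the replicate number as a block (adjusted p = 0.000467, edgeR). H2-Ob, part of the peptide-loading regulator DO, rose 2.46-fold (1.30 ± 0.26, adjusted p = 0.00341, edgeR).

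The unfolded protein response (UPR) is the programme that 3 sensors of the endoplasmic reticulum, IRE1, PERK and ATF6, start when misfolded proteins gather there. None of 22 tested UPR sensors and regulators was called by edgeR (2 at an unadjusted p under 0.05, 0 by DESeq2), with a median of 0.13, where 8.36% of all genes were. Ern1, the gene of IRE1, read 10.7, 19.4, 18.5 and 17.4 CPM in HSC and 18.02, 14.99, 11.5 and 14.2 CPM in MPP3 (log2 fold change -0.17 ± 0.33 (SE), edgeR adjusted p = 0.866). Xbp1, the transcript that IRE1 splices, read 18.4, 18.8, 24.4 and 14.9 CPM and 22.7, 17.3, 18.7 and 13.3 CPM (log2 fold change -0.09 ± 0.21 (SE), edgeR adjusted p = 0.895); these gene totals do not separate its spliced form. The groups overlapped for both. Eif2ak3, the gene of PERK, read 5.12, 4.097, 3.65 and 6.06 CPM and 9.25, 7.98, 10.3 and 8.71 CPM; the groups did not overlap, but the difference of 0.94 ± 0.34 did not pass (adjusted p = 0.113, edgeR). Atf4, the factor translated under PERK, differed by 0.15 ± 0.21 (adjusted p = 0.799), its target Ddit3 (CHOP) by -0.40 ± 0.27 (0.471), Atf6 by -0.07 ± 0.16 (0.902) and Dnajb9, an XBP1 target, by -0.31 ± 0.27 (0.603), all by edgeR. Hspa5, the chaperone BiP that is induced by all 3 branches, read 878, 672, 387 and 787 CPM in HSC and 941, 664, 524 and 714 CPM in MPP3 (log2 fold change 0.06 ± 0.25 (SE), edgeR adjusted p = 0.944). HSC replicate 3 was the lowest of the 8 for Hspa5.

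The 5′ flank of Hspa5 is shown because it carries the ER stress response element through which ATF6 and NF-Y act on chaperone genes, a CCAAT and a CCACG with a fixed gap, both in capitals (chr2:34771840-34772089 (+ strand), RefSeq, GRCm38.p6).
Hspa5: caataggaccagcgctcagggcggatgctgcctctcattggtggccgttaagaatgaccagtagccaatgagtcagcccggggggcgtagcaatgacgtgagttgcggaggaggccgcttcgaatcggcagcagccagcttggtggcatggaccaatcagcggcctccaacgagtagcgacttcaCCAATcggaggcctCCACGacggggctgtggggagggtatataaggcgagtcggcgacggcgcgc
That element, on either strand, stood in 7 of 25 promoter windows of ER chaperone genes (28.0%) and in 0.160% of all windows. Of the 32 tested ER chaperones 3 rose (9.38%) and 1 fell (3.12%), against 3.69% and 4.68% of all genes. Their median was 0.10. Pdia4, a disulphide isomerase, rose 1.297-fold, with 162, 155, 163 and 160.4 CPM in HSC and 234, 184, 210.0 and 204 CPM in MPP3 (log2 fold change 0.37 ± 0.09 (SE), edgeR adjusted p = 0.0135); it lost the call without HSC replicate 2, HSC replicate 4 or MPP3 replicate 1 (adjusted p up to 0.08, edgeR). In ER-associated degradation 2 of 27 rose by edgeR (7.41%, against 3.69% of all genes). None fell by edgeR (1 at an unadjusted p under 0.05, 0 by DESeq2), against 4.68%. The risers Edem1 (0.93 ± 0.21, adjusted p = 0.00925, edgeR) and Edem2 (0.51 ± 0.10, adjusted p = 0.00303, edgeR) hand misfolded glycoproteins to disposal. Edem2 read 131, 129, 119.5 and 139.5 CPM in HSC and 161, 178, 189.9 and 212 CPM in MPP3. None of 31 proteasome genes was called by edgeR (1 at an unadjusted p under 0.05, 0 by DESeq2), where 8.36% of all genes were.

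ATF4 targets gave 3 falls and 1 rise among 31 tested, or 9.68% and 3.23%, against 4.68% and 3.69% of all genes. Nupr1, a small stress-induced nuclear protein, fell from 89.3, 144, 90.1 and 81.3 CPM to 6.495, 4.86, 3.71 and 1.64 CPM (log2 fold change -4.60 ± 0.40 (SE), edgeR adjusted p = 8.58e-07), with no overlap. Trib3, a pseudokinase that restrains ATF4, read 18.6, 23.4, 24.7 and 16.6 CPM in HSC and 4.05, 4.52, 12.5 and 4.57 CPM in MPP3 (log2 fold change -1.70 ± 0.30 (SE), edgeR adjusted p = 0.00122). Phgdh, the first enzyme of serine synthesis, rose 1.32-fold (0.40 ± 0.09, adjusted p = 0.00808, edgeR).

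Few cell cycle genes were called between the 2 mutant cell types. Of 50 tested DNA replication genes none was called by edgeR (12 at an unadjusted p under 0.05, 1 by DESeq2), with a median of 0.14, where 8.36% of all genes were called. Of 47 mitosis genes 1 rose (2.13%, against 3.69% of all genes), with a median of 0.01. Mki67, the proliferation marker, read 188, 166, 153 and 135 CPM in HSC and 179.5, 189.5, 119 and 124 CPM in MPP3 (log2 fold change -0.07 ± 0.18 (SE), edgeR adjusted p = 0.914). Mcm2, a subunit of the replicative helicase, read 576, 719.7, 539.5 and 705 CPM and 768, 715, 688 and 791 CPM (log2 fold change 0.22 ± 0.11 (SE), edgeR adjusted p = 0.288). The groups overlapped for both. The same comparison in WT mice called 39 of the 50 replication genes and 26 of the 47 mitosis genes higher in MPP3 and none lower, where 6.66% of all genes were higher and 6.91% lower in WT mice, with medians of 0.59 and 0.57. The difference between the genotypes, mutant minus WT, was negative for all 50 replication genes and all 47 mitosis genes, against 50.1% of all genes, with medians of -0.47 and -0.59. Its test called 1 of the 97, Tyms, after adjustment over all genes by edgeR. Before adjustment 30 of the 50 and 34 of the 47 had p under 0.05, against 6.93% of all genes. Genes of 1 programme vary together and are not separate evidence.

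Among 22 regulators of G1 2 rose (9.09%) and 1 fell (4.55%), against 3.69% and 4.68% of all genes. Cdk6, the kinase that lets progenitors enter the cycle, read 844, 689, 478 and 806 CPM in HSC and 1402, 1386, 1434 and 1272 CPM in MPP3 (log2 fold change 0.96 ± 0.19 (SE), edgeR adjusted p = 0.00329), with HSC replicate 3 the lowest. Ccnd2, cyclin D2, fell 1.41-fold (adjusted p = 0.0141, edgeR; 0.0649 in a fit on the 8 mutant libraries alone). Among 25 CDK inhibitors and quiescence genes 3 fell (12.0%) and 1 rose (4.0%). The riser, Cdkn1a, which encodes p21, read 8.39, 4.83, 6.100 and 6.23 CPM and 31.8, 22.4, 12.2 and 20.8 CPM (log2 fold change 1.77 ± 0.46 (SE), edgeR adjusted p = 0.0203) and lost its call without HSC replicate 2, 3 or 4 or MPP3 replicate 1 (adjusted p up to 0.0871, edgeR).

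**Figure D3:**
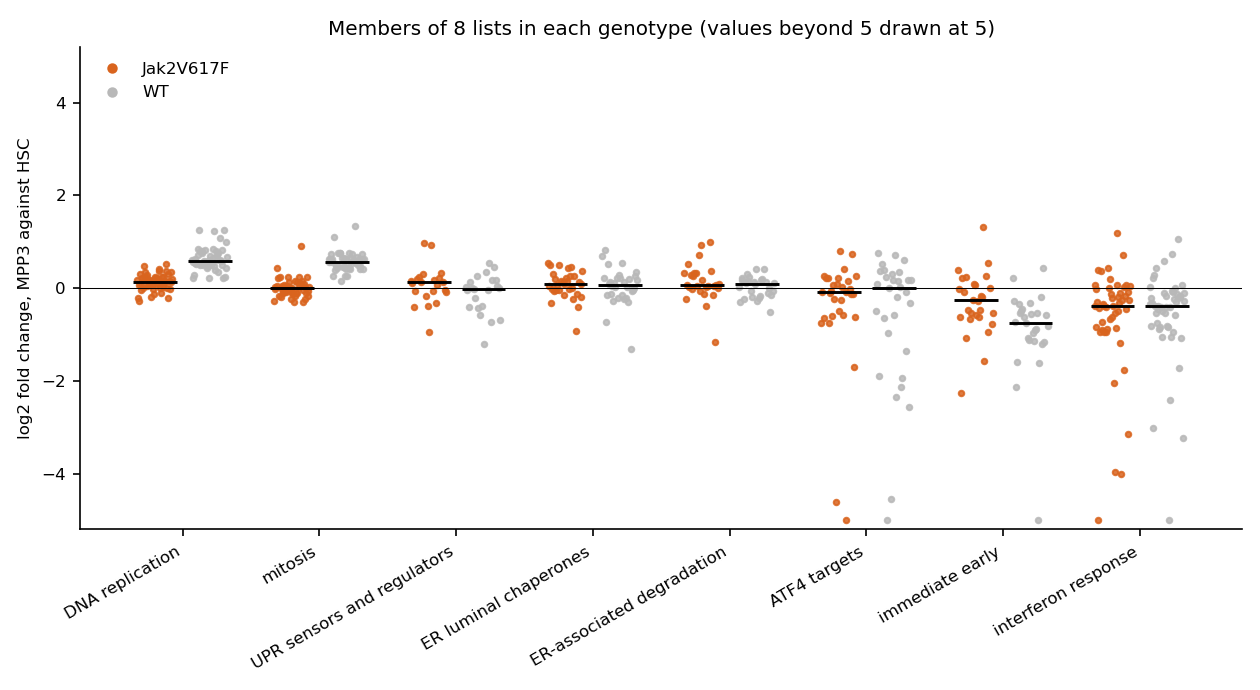
Log2 fold change of MPP3 against HSC for each tested member of 8 lists (points, values beyond 5 drawn at 5) in Jak2V617F mice (orange) and WT mice (grey), with bars at the medians. DNA replication and mitosis genes lie at medians of 0.14 and 0.01 in mutant mice and 0.59 and 0.57 in WT mice, while the medians of the UPR sensor list are 0.13 and -0.01.

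In energy metabolism most calls were among the glycolysis and antioxidant genes. Of 51 nuclear genes of oxidative phosphorylation 1 was called, higher (1.96%), against 8.36% of all genes in either direction. That gene, Ndufa4, a cytochrome oxidase subunit, read 205, 232, 204 and 207 CPM in HSC and 427, 349.5, 296 and 386 CPM in MPP3 (log2 fold change 0.78 ± 0.11 (SE), edgeR adjusted p = 0.000231). None of 40 ribosome biogenesis genes was called by edgeR (7 at an unadjusted p under 0.05, 1 by DESeq2), where 8.36% of all genes were. Of 50 cytosolic ribosomal protein genes Rpl35 rose (2.0%, against 3.69% of all genes). Glycolysis and glycogen genes gave 6 falls and 3 rises among 36, or 16.7% and 8.33%, against 4.68% and 3.69% of all genes. Ldhb, the lactate dehydrogenase B chain, fell from 159, 107, 161 and 149.7 CPM to 52.6, 50.3, 69.5 and 71.4 CPM (log2 fold change -1.24 ± 0.15 (SE), edgeR adjusted p = 3.45e-05), and Pfkp, the platelet type phosphofructokinase, fell 1.704-fold (-0.77 ± 0.13). Hk3, from above, and Pgam1, phosphoglycerate mutase 1 (0.77 ± 0.13), rose. Among antioxidant genes 4 of 34 rose (11.8%) and 2 fell (5.88%); 2 rose without any 1 library of HSC 1, 3 or 4 or of MPP3.

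Adhesion genes moved both ways: of 30 tested 7 rose (23.33%) and 6 fell (20.0%), against 3.69% and 4.68% of all genes. Their median was 0.18. Itgal, the αL chain of the leukocyte integrin LFA-1, read 14.8, 17.3, 14.7 and 19.99 CPM in HSC and 100.4, 98.2, 115 and 126 CPM in MPP3 (log2 fold change 2.72 ± 0.21 (SE), edgeR adjusted p = 2.76e-07), while Itgb2, the β2 chain that pairs with it, fell from 105, 114, 172 and 137 CPM to 45.3, 70.6, 78.3 and 46.1 CPM (log2 fold change -1.14 ± 0.20 (SE), edgeR adjusted p = 0.00141). Selplg, the P-selectin ligand, rose 1.63-fold. Esam, an endothelial and HSC adhesion molecule, fell 2.86-fold (-1.51 ± 0.19, adjusted p = 5.17e-05, edgeR), and Cd9, a tetraspanin of platelets and HSC, 2.15-fold (-1.10 ± 0.10, adjusted p = 1.78e-06, edgeR).

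Imprinted genes of growth control fell in 7 of 16 tested cases by edgeR (43.75%, against 4.68% of all genes), with a median of -1.30. None was called higher by edgeR (0 at an unadjusted p under 0.05, 0 by DESeq2), against 3.69%. The falls numbered 4 without HSC replicates 1 and 4 together. Grb10, an adaptor that restrains growth factor receptors, read 117, 101, 54.7 and 132 CPM in HSC and 22.01, 12.8, 25.2 and 22.1 CPM in MPP3 (log2 fold change -2.30 ± 0.35 (SE), edgeR adjusted p = 0.00029). Ndn, necdin, which holds HSC in quiescence, read 23.4, 13.8, 24.5 and 21.3 CPM and 0.948, 1.03, 2.35 and 2.35 CPM (log2 fold change -3.63 ± 0.42 (SE), edgeR adjusted p = 1.91e-05). Snrpn was at 0 in each MPP3 library and read 6.52, 1.77, 4.102 and 4.19 CPM in HSC, at least 51.2-fold above the floor, and Sgce, ε-sarcoglycan, fell 1.805-fold. Chemokines and their receptors rose in 7 of 16 cases by edgeR (43.75%, against 3.69% of all genes). None fell by edgeR (1 at an unadjusted p under 0.05, 0 by DESeq2), against 4.68%. The rises numbered 3 without HSC replicate 1 or without HSC replicate 4, and 4 without HSC replicate 2 or MPP3 replicate 2. Ccl9, a macrophage chemokine, read 2.56, 0.898, 3.78 and 1.899 CPM in HSC and 89.6, 67.1, 109.8 and 71.1 CPM in MPP3 (log2 fold change 5.203 ± 0.44 (SE), edgeR adjusted p = 7.57e-07).

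The remaining lists held 1 or 2 called genes at most in either direction. Over all genes 3.69% were called higher and 4.68% lower. Farsa rose among 24 aminoacyl-tRNA synthetases, Srp68 among 49 genes of ER translocation, glycosylation and COPII, Chordc1 among 27 cytosolic chaperones and Laptm4b among 38 genes of lysosome and autophagy. mt-Nd6 rose among 13 genes of the mitochondrial genome and Mrpl16 among 36 of the mitochondrial ribosome. Stard4 fell among 25 genes of cholesterol synthesis, Mycn and Mxd3 among 11 of the MYC network and Bcl2l1 among 16 of the BCL2 family. Of 30 chromatin regulators mutated in myeloid neoplasms Hmga2 rose and Setbp1 fell. None of 28 immediate early genes was called by edgeR (1 at an unadjusted p under 0.05, 0 by DESeq2), with a median of -0.27, where 8.36% of all genes were called.

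**Figure D4:**
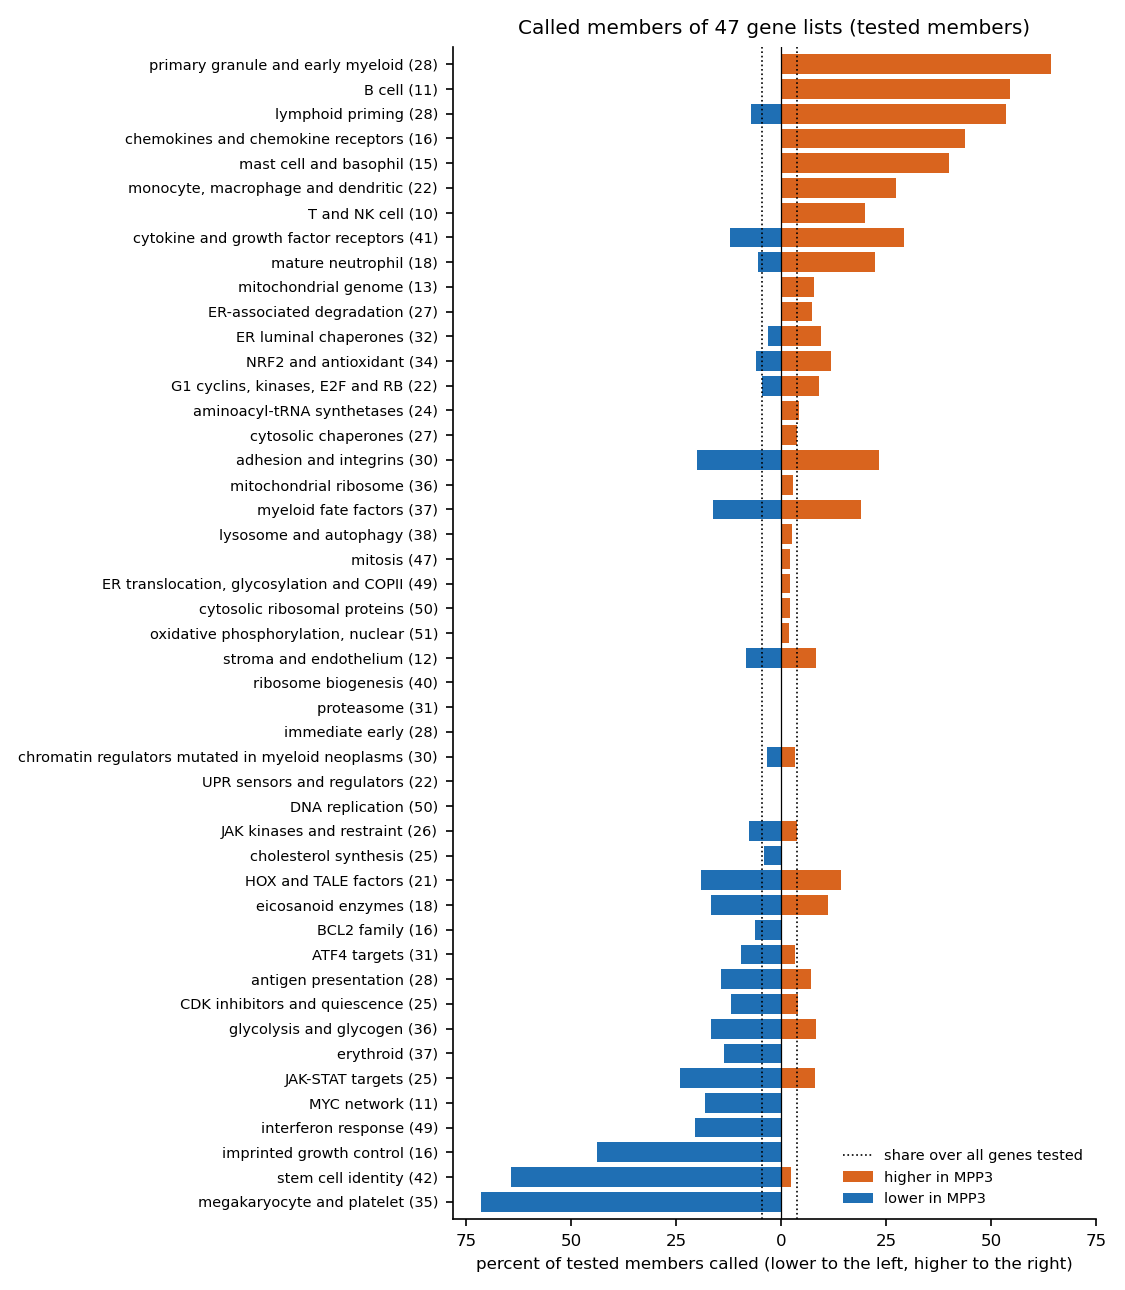
Percent of the tested members of 47 gene lists (number tested in brackets) called higher (orange, right) or lower (blue, left) in MPP3 of Jak2V617F mice, with dotted lines at 3.69% and 4.68%, the shares over all genes. Primary granule and early myeloid genes (18 of 28) top the rises, and megakaryocyte and platelet genes (25 of 35) and stem cell identity genes (27 of 42) the falls; some genes are on more than 1 list.

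Among the largest changes at a group mean of 10 CPM or more, several were on none of the lists. Rab44, a RAB GTPase of granule release, read 1.73, 0.926, 1.95 and 0.949 CPM in HSC and 108, 76.6, 60.9 and 60.8 CPM in MPP3 (log2 fold change 5.78 ± 0.36 (SE), edgeR adjusted p = 2.4e-08). Atp8b4, a phospholipid flippase, read 0.474, 1.43, 1.07 and 0 CPM and 75.2, 54.2, 42.9 and 49.1 CPM (log2 fold change 6.24 ± 0.86 (SE), edgeR adjusted p = 0.00016). On the side of the falls, Ache, acetylcholinesterase, which mouse megakaryocytes express, read 7.99, 23.3, 27.9 and 14.8 CPM in HSC and 0.144, 0.112, 0.4603 and 0.102 CPM in MPP3 (log2 fold change -6.47 ± 0.72 (SE), edgeR adjusted p = 1.26e-05). Evc2, a ciliary component of Hedgehog signalling, was at 0 in each MPP3 library and read 23.8, 16.5, 13.7 and 16.4 CPM in HSC, at least 218-fold above the floor.

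On the scale of TPM, which is per length and allows genes to be compared with each other, the most abundant transcripts were shared. Leaving out ribosomal, mitochondrial and predicted genes, Actb led both cell types, at 9545 ± 2377 TPM in HSC and 10090.0 ± 609.6 TPM in MPP3 (SD, n = 4), followed in both by Eef1a1, Ubb and Ptma. The fifth place went to B2m in HSC (4835 ± 595 TPM) and to Gpx1, glutathione peroxidase 1, in MPP3 (5656 ± 235 TPM, from 4012 ± 654 TPM in HSC; authors' deposited TPM). In CPM Gpx1 read 1703, 2183, 3027 and 2399 CPM in HSC and 3294, 3255, 3279 and 3470.0 CPM in MPP3 (log2 fold change 0.51 ± 0.13 (SE), edgeR adjusted p = 0.0166), and it lost its call without HSC replicate 2 or MPP3 replicate 4 (adjusted p up to 0.125, edgeR).

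The step from HSC to MPP3 was tested for a difference between genotypes, mutant minus WT, by the interaction term of the same model. Of the 1186 genes called in mutant mice, 1159 had the same sign in WT mice and 27 the opposite, with a median size of 1.28 in mutant and 1.10 in WT mice on the log2 scale; the genes were chosen on the mutant values, so the 2 medians are not compared. The interaction called 6 genes (0.0423% of those tested), 2 positive and 4 negative, while 982 had an unadjusted p under 0.05. DESeq2 called 94. Alox5 was called in opposite directions in the 2 genotypes: in WT mice it read 1.77, 0.9700, 1.301 and 3.87 CPM in HSC and 5.64, 5.88, 6.69 and 6.79 CPM in MPP3, and in mutant mice 15.2, 16.9, 25.04 and 10.7 CPM and 5.202, 6.505, 5.63 and 3.42 CPM (difference -3.36 ± 0.54 (SE), edgeR adjusted p = 0.0327). Mutant HSC were the highest of the 4 groups for it. Ifitm1, an interferon-induced membrane protein, fell in WT mice, from 592, 794, 728 and 629.6 CPM to 365, 312, 295 and 354 CPM, and read 296, 287, 389 and 261 CPM in HSC and 536, 378, 327 and 416 CPM in MPP3 of mutant mice, where it did not pass (difference 1.48 ± 0.21 (SE), edgeR adjusted p = 0.0189).

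For Plac8 the rise was smaller in mutant mice. WT HSC read 24.5, 18.2, 28.1 and 46.1 CPM and WT MPP3 589, 614, 502 and 514 CPM, against 94.97, 146, 148 and 102 CPM and 709.7, 714, 598 and 685 CPM in mutant mice (difference -1.78 ± 0.30 (SE), edgeR adjusted p = 0.0441). Tyms, thymidylate synthase of DNA synthesis, read 96.4, 105, 122 and 109 CPM in WT HSC, 173, 202, 206 and 176 CPM in WT MPP3, 259, 205, 203 and 234 CPM in mutant HSC and 220.1, 208, 192 and 222 CPM in mutant MPP3 (difference -0.90 ± 0.14 (SE), edgeR adjusted p = 0.0327). In both genes the WT HSC libraries lay below all other libraries. Gbp4 fell in both genotypes, but read 1.79, 1.17, 1.67 and 2.94 CPM in WT MPP3 where mutant MPP3 had no count (fitted difference -7.84 ± 0.91 (SE), edgeR adjusted p = 0.00909; the fitted value rests on the prior count and is no bound). Spats2 read 2.11, 2.18, 2.99 and 1.52 CPM in WT HSC, 1.26, 0.337, 0.453 and 0.852 CPM in mutant HSC and 0.776, 1.09, 0.128 and 1.25 CPM in mutant MPP3, and was at 0 in each WT MPP3 library (edgeR adjusted p = 0.0404 for the difference). With the replicate number as a block Gbp4 was the only one of the 6 called, and with a block for each batch and genotype Tyms was. Over 25 alternatives the 6 calls were lost in 3 (Gbp4) to 19 (Plac8 and Spats2). Gata1 fell in mutant mice and read 47.8, 31.04, 55.1 and 63.1 CPM in HSC and 45.6, 30.5, 31.9 and 50.2 CPM in MPP3 of WT mice, but its difference did not pass (-2.11 ± 0.42 (SE), edgeR adjusted p = 0.151).

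**Figure D5:**
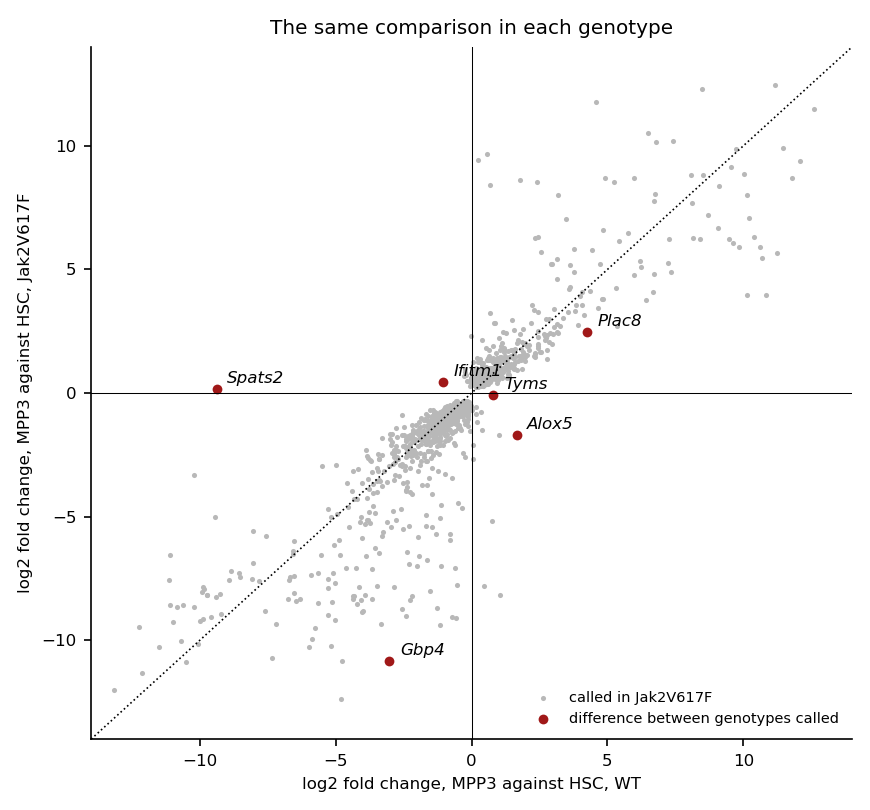
Log2 fold change of MPP3 against HSC in Jak2V617F mice (vertical axis) and WT mice (horizontal axis) for the 1186 genes called in mutant mice (grey) and the 6 genes whose difference between genotypes was called (dark red); the dotted line marks equal values. Alox5 lies below 0 in mutant and above 0 in WT mice, and Spats2 has no count in WT MPP3.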

How the data were processed

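RNA of 16 libraries was measured, 8 of them described here. Per the submitters' processing notes, cutadapt 4.0, FastQC, HISAT2 and Salmon were used with GRCm38 (mm10); what each did, the other versions, settings, strand and transcript set were not given in the sources. Per the labels, the SMARTer Ultra Low RNA kit gave the cDNA, and libraries had 12 to 15 cycles of PCR. The deposited Salmon tables hold estimated counts per gene (expected counts, not normalized), which were rounded and tested. The authors' TPM was used only to rank levels between genes, and the effective lengths (in bases, deposited as a score per gene, per the file headers) only as an offset in 1 alternative.

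Of 31716 rows, 29806 were genes, 16 without a symbol and 50 sharing one; 1910 rows named as single transcripts (0.725% of counts on average in the 8 libraries) were left out. Symbols and coordinates came from GENCODE M21 (GRCm38). filterByExpr kept 14179 of 19743 genes with a count. All 16 libraries entered 1 edgeR 4.0.16 model (glmQLFit, robust, and glmQLFTest) with a coefficient per group, TMM scaling and Benjamini-Hochberg adjustment, in R 4.3.3. This model did not use the pairing by replicate number, which entered only as a block in the alternatives. SE was taken from F, as |log2 fold change|/√F. In a test on simulated counts for MPP3 against HSC in mutant mice with 13868 genes tested, 56 of 100 genes changed 2-fold and 63 of 100 changed 4-fold were recovered (56 of 68 and 55 of 58 at 10 CPM or more), with 3 false calls. Depth was 35.3 to 41.5 (1e6 counts) per library. Intervals and floors (3 counts per library) cover counting error only.

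Same-numbered HSC and MPP3 of mutant mice share a batch per the labels, and deviations from the group mean correlated at 0.083 to 0.164 within numbers and -0.104 to 0.010 across them. Named genes were the 15 largest rises and falls at 10 CPM or more with no overlap, up to 4 members of each of 47 lists with the smallest adjusted p and 2 against the majority, sort markers, UPR genes, genes with a called difference, and the 5 highest by TPM in each group; not each is printed, and other members were added for their role. The 47 lists held 1347 names, of which 1341 matched and 1277 were tested; lists overlap. The members and lists were chosen with earlier results of these data known. Promoter windows came from RefSeq (GRCm38.p6); 7 motifs were listed with the lists and 4 (for GATA, ETS and C/EBP factors) were added after the data were seen. Alternatives were a replicate block, a block per genotype, RLE size factors, DESeq2 1.42.0, limma-voom (limma 3.58.1), no filter, the 8 libraries alone, offsets from effective length, a fit without haemoglobin, mitochondrial and rRNA genes, and each library left out; HSC replicates 1 and 4 left out together was added later.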

Additional observations from a re-analysis of the deposited data

Results flagged for a closer look

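Of 276 sets of 4 libraries, from 142 named genes, 25 had a highest or lowest library far from the other 3 by Dixon's ratio. The limit used is passed by about 1 in 20 independent sets of normal values. These sets are CPM of the same 8 libraries, and those of Ctsg, Cavin2, Tcrg-C1 and Cd79a had counts in only 1 library. The count is therefore not compared with that rate. In HSC replicate 3 the level was the highest of 4 for Procr (63.6 CPM), Mpo (16.8 CPM), Ctsg (0.0533 CPM), Elane (8.26 CPM), Irf8 (11.7 CPM), H2-Ob (28.8 CPM), Esam (251 CPM) and Cd79a (0.0799 CPM), and the lowest for Pdgfrb (10.6 CPM). In MPP3 replicate 3 it was the highest for Flt3 (190.3 CPM), Fcgr3 (6.93 CPM), Bcl11a (76.7 CPM), Trib3 (12.5 CPM) and Ache (0.4603 CPM), and the lowest for Gfi1 (2.199 CPM). In MPP3 replicate 2 it was the highest for H2-Aa (135 CPM) and Cd74 (459 CPM) and the lowest for Ikzf1 (107 CPM). In HSC replicate 2 it was the highest for Nupr1 (144 CPM) and Ndufa4 (232 CPM) and the lowest for Tbxas1 (165 CPM). The other cases were Cebpa (0.284 CPM) and Tcrg-C1 (0.0474 CPM) in HSC replicate 1, Il4ra (83.2 CPM) in HSC replicate 4 and Cavin2 (0.0766 CPM) in MPP3 replicate 4.

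The difference of the step between genotypes, mutant minus WT, passed its test (edgeR interaction) for 6 genes, with fitted values of -7.84 for Gbp4, -1.78 for Plac8, -3.36 for Alox5, -0.90 for Tyms, 1.48 for Ifitm1 and 9.54 for Spats2 on the log2 scale. The values of Gbp4 and Spats2 rest on a group with no count and are no bounds. Rows named as single transcripts, which entered no comparison, held 0.725% of counts on average in the 8 mutant libraries.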

How the results depend on the processing

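Of the 1186 calls, 648 were kept in each of the 17 other settings that use at least 7 of the 8 libraries. Leaving out 1 mutant library gave 916 to 1132 calls (357 to 440 higher, 539 to 707 lower), and leaving out HSC replicates 1 and 4 together, chosen after seeing the data, gave 776 (324 higher). With the replicate number as a block 1360 genes were called, 1116 of them shared. A set of 142 named genes was followed through the settings. It left out some genes named only as list members, Il1b and Cybb among them. In that set, beside the changes given with their results, the block changed no other call for MPP3 against HSC. Of its 122 called genes 111 kept their call in each of the 17 other settings.

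The difference between genotypes was less stable: the replicate block gave 1 gene (0 higher, 1 lower), as did the replicate block per genotype (0 and 1). DESeq2 gave 94 (31 higher, 63 lower), limma-voom 5 (1 higher, 4 lower) and effective length offsets 4 (2 higher, 2 lower). RLE size factors, no filter, and the fit without haemoglobin, mitochondrial and rRNA genes each gave 6 (2 higher, 4 lower), as the main fit did. Leaving out 1 library gave 1 to 5 (0 to 2 higher, 1 to 4 lower). Without HSC replicates 1 and 4 together 0 were called by edgeR (891 at an unadjusted p under 0.05; 0 higher, 0 lower). The cause was not tested.

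Of 1692 recomputed list counts, 282 moved by over 1.5 times. No call took the opposite sign; Gm14440, with counts in HSC replicates 1 and 4 alone of the 8 libraries, was at 0 without them. Signs turned for named genes that did not pass the test: Fcgr1 (block per genotype -0.14, limma-voom -0.37, -0.17 without HSC replicates 1 and 4 together, and -0.21 to 0.87 leaving out 1 library), and, without those 2 libraries, Jak2 (0.0195), Tyms (0.0435) and Hlf (0.0119). Spats2 was -0.0392 with a block per genotype and -0.10 in limma-voom. Leaving out 1 library gave -0.23 to 0.0338 for Xbp1, -0.16 to 0.0131 for Atf6, -0.15 to 0.21 for Hspa5, -0.20 to 0.017 for Mki67, -0.14 to 0.0319 for Hlf and -0.15 to 0.56 for Spats2. Depth limits genes under about 3 counts per library.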

Other observations

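Of the genes below, Pdgfrb is on the stroma and endothelium list, and Trf and H2afy were chosen after their values were seen. Pdgfrb, a platelet-derived growth factor receptor of stromal cells, read 14.9, 15.1, 10.6 and 15.8 CPM in HSC and 114, 156, 169.6 and 103 CPM in MPP3 (log2 fold change 3.26 ± 0.20 (SE), edgeR adjusted p = 2.4e-08), while Pdgfra and Lum, of the same list, had no count in any of the 8 libraries. Trf, transferrin, read 96.1, 76.3, 109 and 99.96 CPM in HSC and 356, 375, 461 and 398 CPM in MPP3 (log2 fold change 2.06 ± 0.14 (SE), edgeR adjusted p = 4e-08). H2afy, which encodes the histone variant macroH2A1, read 341, 320.4, 301 and 320.5 CPM and 1027, 848, 890.4 and 847 CPM (log2 fold change 1.49 ± 0.09 (SE), edgeR adjusted p = 1.74e-08).

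Constant regions of T cell receptor beta and gamma genes had counts in MPP3, and that of the alpha gene, Trac, had none there; Trac had 1 and 17 counts in HSC replicates 1 and 2 and none in the other two HSC libraries. Trbc1 was at 0 in each HSC library and read 4.397, 12.1, 13.5 and 7.82 CPM in MPP3, at least 123-fold above a floor of 3 counts per library. Tcrg-C1 had 2 counts in the 4 HSC libraries together and read 4.51, 9.41, 5.39 and 7.03 CPM in MPP3, a ratio of summed counts of 515 (95% exact counting interval 142 to 4259). Cd3d and Cd3e, which mature T cells express, were at or near 0 in the same libraries.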
